A study of Homo sapiens with 8 samples.

Results

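The transcripts of 10 nuclear hormone receptors were followed over 8 RNA sequencing libraries: *NR3C1* (glucocorticoid receptor), *ESR1* (estrogen receptor alpha), *RARA* and *RARG* (retinoic acid receptors), *RXRA* (retinoid X receptor), *VDR* (vitamin D receptor), *THRA* (thyroid hormone receptor), *PPARG* and *PPARD* (peroxisome proliferator-activated receptors) and *NR2F2* (the orphan receptor COUP-TFII). They were taken by gene symbol from the deposited expression table, where 10 of 10 had a row among 13842 genes. The libraries came from MCF10A, an immortalized, non-tumorigenic breast epithelial line, and from DCIS.COM, a line of the same lineage that models ductal carcinoma in situ. Each line carried either the lentiviral vector pLOC-empty or pLOC-MALINC1, which expresses the long non-coding RNA *MALINC1*, and 2 libraries were made for each of the 4 groups. All cells, controls included, had been stably transduced and selected with blasticidin. The question of the design is which transcripts change when *MALINC1* is overexpressed in a normal-like and in a pre-invasive background.

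Both lines were compared as grown in their own media. The MCF10A medium is listed with hydrocortisone, EGF, insulin and cholera toxin besides horse serum, whereas that of DCIS.COM is listed with horse serum and none of these, so line and medium cannot be told apart. The labels name no separate cultures behind the 2 libraries of a group, so the p-values measure the spread between these samples, which may be technical. Separate transductions are not named either. The effect of *MALINC1* below is therefore the difference between pLOC-MALINC1 and pLOC-empty cells. *MALINC1* and other differences between these transduced populations cannot be told apart in it.

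Nuclear receptors are transcription factors that are switched by small lipophilic ligands. Steroid receptors such as the glucocorticoid and estrogen receptors are held by chaperones until hormone binds and then act mostly as homodimers, whereas the retinoic acid, vitamin D, thyroid hormone and peroxisome proliferator-activated receptors sit on DNA as heterodimers with a retinoid X receptor and exchange corepressors for coactivators when ligand arrives. In the mammary gland they connect ovarian hormones, glucocorticoids, retinoids and lipids with the growth and differentiation of the epithelium.

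All 10 are protein-coding genes. On GRCh37, the build of the files, *PPARG* lies at chr3:12328867-12475855, *PPARD* at chr6:35310335-35395968, *ESR1* at chr6:151977826-152450754, *RARA* at chr17:38465432-38513895, *THRA* at chr17:38214543-38250120, *RXRA* at chr9:137208944-137332431 and *NR2F2* at chr15:96869167-96883492, on the plus strand. *NR3C1* at chr5:142657496-142815077, *VDR* at chr12:48235320-48336831 and *RARG* at chr12:53604351-53626764 lie on the minus strand.

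The DNA motifs these proteins read are short: AGGTCA is the half-site of the estrogen, retinoid, vitamin D, thyroid hormone and peroxisome proliferator-activated receptors, and AGAACA that of the glucocorticoid receptor. Both were searched on both strands (also as TGACCT and TGTTCT) in the 250 bases before each annotated start in the RefSeq promoter set of GRCh38.p14, in which 9 of the 10 receptors had 29 entries and *VDR* had none. AGGTCA was found in 4 of the 29 receptor promoters, 3 of *PPARG* and 1 of *RARA*, with 2 of the *PPARG* entries overlapping and holding the same site, against 12.1% of all 35116 promoters. AGAACA was found in 3 of 29, 1 each for *ESR1*, *PPARD* and *RXRA*, against 12.4% of all. The palindromes GGTCANNNTGACC and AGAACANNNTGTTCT were in none of the 29 and in 0.0399% and 0.00285% of all promoters. The first promoters of the peroxisome proliferator-activated receptors are shown because the levels of these genes ranged widely over the groups, and that of *RARA* because it holds the same half-site. Capitals mark the motif letters, a match describes letters and not a bound site, and all lie on the plus strand, at chr3:12287118-12287367, chr6:35342308-35342557 and chr17:40308930-40309179.
PPARG: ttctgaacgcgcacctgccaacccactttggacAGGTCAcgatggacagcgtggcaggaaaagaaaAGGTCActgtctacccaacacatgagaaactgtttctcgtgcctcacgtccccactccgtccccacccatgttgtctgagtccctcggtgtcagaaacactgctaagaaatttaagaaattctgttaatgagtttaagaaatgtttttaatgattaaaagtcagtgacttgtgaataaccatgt
PPARD: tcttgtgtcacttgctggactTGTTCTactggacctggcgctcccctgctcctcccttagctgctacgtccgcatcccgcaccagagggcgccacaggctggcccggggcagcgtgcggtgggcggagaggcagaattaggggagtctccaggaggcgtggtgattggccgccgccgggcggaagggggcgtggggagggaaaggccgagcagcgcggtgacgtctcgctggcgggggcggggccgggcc
RARA: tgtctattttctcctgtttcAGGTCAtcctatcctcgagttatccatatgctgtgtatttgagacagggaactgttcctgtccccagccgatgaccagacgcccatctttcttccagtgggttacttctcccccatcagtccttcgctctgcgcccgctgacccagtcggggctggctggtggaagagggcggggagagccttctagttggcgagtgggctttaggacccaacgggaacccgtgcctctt
The PPARG stretch holds AGGTCA at 217 and at 184 bases before the start, the RARA stretch holds it at 230, and the PPARD stretch holds TGTTCT at 229.

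Expression is given as normalized CPM (read counts scaled to a common library size), back-transformed from the deposited log2 values, and 20604377 to 37550457 reads per library fell on the genes of the table. A transcript is said to rise or fall when its adjusted p was below 0.01 by limma over all genes, and is called a differentially expressed gene (DEG) when it also changed over 2-fold. *MALINC1* itself was at 1.25 ± 0.357 CPM in MCF10A pLOC-empty and 12.5 ± 1.05 with pLOC-MALINC1, and at 1.25 ± 0.146 and 21.8 ± 3.76 CPM in DCIS.COM (SD, n = 2). Basal epithelial markers were present in every library, with 8 of 8 measured and a summed level of 20190 to 27690 CPM in MCF10A and 4674 to 4865 CPM in DCIS.COM. Luminal markers had 7 of 10 measured, at 1400 to 1790 CPM in MCF10A and 3328 to 3582 CPM in DCIS.COM, and *PGR*, *ELF5* and *KIT* had no row. Among markers of other cells, *CD14* and *CD68* of 6 leukocyte genes summed to 4.11 to 14.3 CPM, *PECAM1* of 4 endothelial genes reached 7.21 CPM, *COL1A1* of 7 fibroblast genes 15.9 CPM and *LPL* of 5 adipocyte genes 1.24 CPM, while the defining *PTPRC*, *VWF*, *CDH5*, *DCN* and *ADIPOQ* had no row. In MCF10A all 8 basal markers rose with pLOC-MALINC1 (7 under quantile normalization), against 21.5% of all genes, and *COL1A1* fell by 1.14 on the log2 scale. Of the same 8 basal markers, 2 rose and 3 fell in DCIS.COM, against 16.4% and 16.7% of all genes. In DCIS.COM with pLOC-MALINC1, *PECAM1* fell from 6.06 and 7.21 CPM to 0.0874 and 0.177 CPM, *LPL* from 1.03 and 1.24 to 0.350 and 0.236 CPM, and the *CD14* and *CD68* sum was at 8.13 and 7.89 CPM against 4.20 and 4.11, both genes having risen. The 2 DCIS.COM pLOC-MALINC1 libraries differed more than other pairs (chi-square per degree of freedom 20.4, others 3.27 to 6.27). Abundant genes weigh most in this chi-square, and *RN7SL1* and *RN7SL2* took 11.5% and 8.22% of the reads of these 2 libraries. The part of these marker changes, and of the difference between these 2 libraries, in the receptor results was not tested.

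For a rough comparison between genes, levels were set per kilobase of merged exon, the union over all annotated transcripts. That union can be longer than the transcripts expressed (*PPARG* has 34 transcripts and 11.981 kb), and reads were counted on another annotation, so the order is approximate. By this measure *RARG* and *NR3C1* had the highest levels in every group, at 11.8 to 16.8 CPM per kb. *ESR1* was lowest of the 10 in each, at 0.129 to 0.276 CPM per kb, and *THRA* second lowest, at 0.512 to 0.739 CPM per kb. The other thyroid hormone receptor gene, *THRB*, is outside the 10 and was not set per kilobase. It was at 5.66 ± 0.256 CPM in MCF10A pLOC-empty and 23.5 ± 2.39 CPM in DCIS.COM pLOC-empty, where *THRA* was at 5.42 and 4.81 CPM. In MCF10A pLOC-empty the order from the top was *NR3C1*, *RARG*, *PPARD*, *VDR*, *RXRA*, *PPARG*, *RARA*, *NR2F2*, *THRA* and *ESR1*, with no overlap between neighbours. *PPARD* ranked above *VDR* there, at 9.51 ± 0.368 CPM per kb, and below *PPARG* in DCIS.COM pLOC-empty, at 2.59 ± 0.182. Neighbours overlapped in their 2 libraries for *VDR* and *PPARD* and for *RARA* and *NR2F2* in MCF10A pLOC-MALINC1, and for *VDR* and *RXRA* in DCIS.COM pLOC-empty. The estrogen receptor lay at 41 to 132 reads per library, which limits its precision, whereas *NR3C1* had 2268 to 4601 reads.

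**Figure D1:**
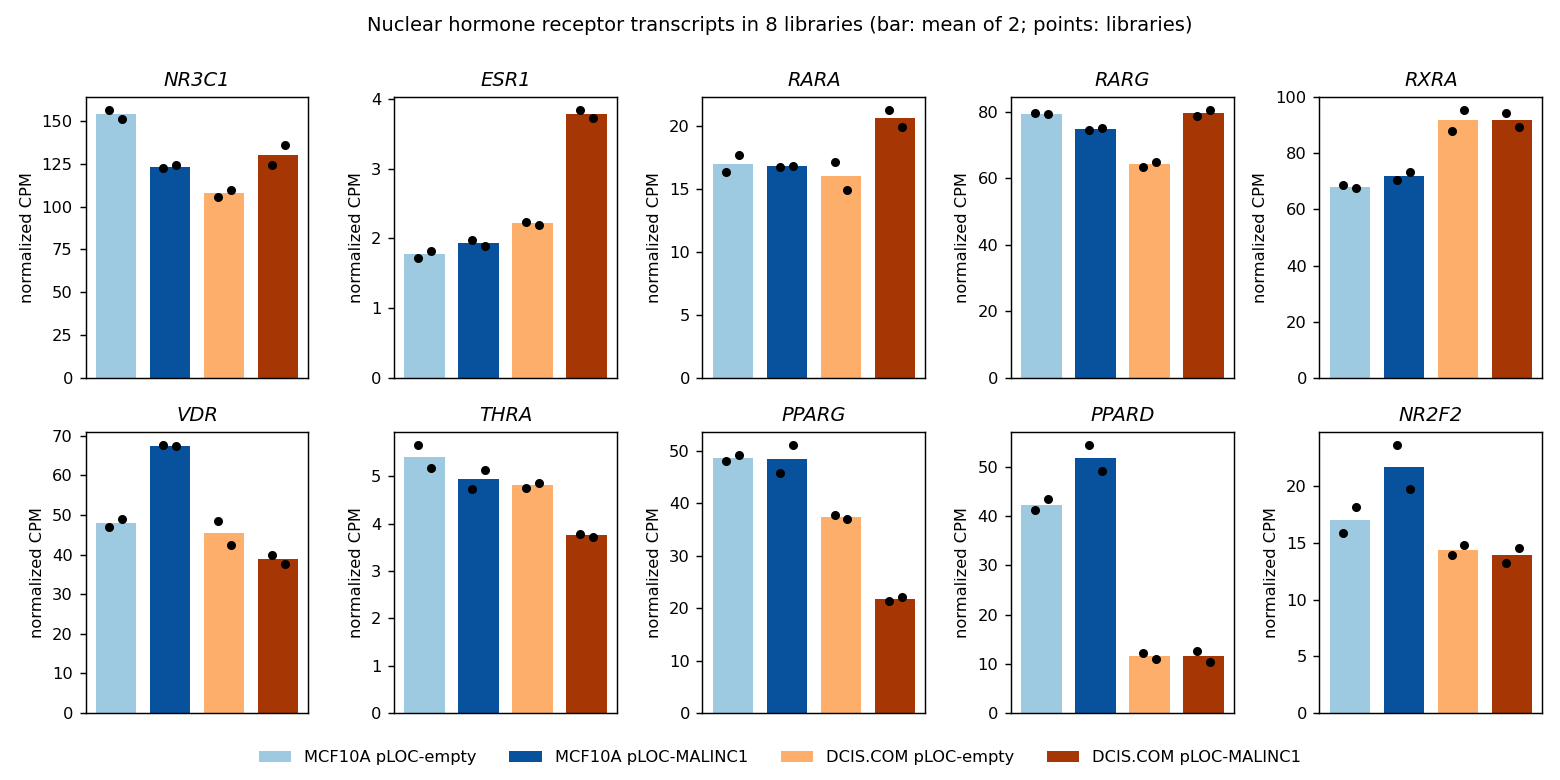
Normalized CPM (y axis, from 0) of the 10 receptors, 1 panel each, in the 4 groups. Bars are means of 2 libraries and points are the libraries. *PPARD* is at 41.2 to 54.4 CPM in MCF10A and 10.4 to 12.6 in DCIS.COM, and *PPARG* is lowest in DCIS.COM pLOC-MALINC1.

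In MCF10A, the vitamin D and glucocorticoid receptors changed in opposite directions with overexpression of *MALINC1*. Of the 10 receptors, 1 rose and 1 fell, against 39.6% of all genes past the same threshold (21.5% higher and 18.1% lower), and none was a DEG, against 5.5% of all genes. The median absolute log2 change was 0.13 over the receptors and 0.23 over all genes.

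*VDR*, which binds calcitriol and controls calcium handling and epithelial differentiation, was at 47.1 and 49.0 CPM in the pLOC-empty libraries and at 67.6 and 67.4 CPM in the pLOC-MALINC1 libraries. Both libraries with *MALINC1* lay above both controls, and the log2 fold change was 0.49 (SE 0.060, adjusted p = 2.48e-05, limma). *NR3C1*, the receptor of cortisol and of the hydrocortisone in this medium, was at 156 and 151 CPM in the controls and at 122 and 124 CPM with pLOC-MALINC1. It fell by 0.32 on the log2 scale (SE 0.043, adjusted p = 6.21e-05, limma), again with no overlap between groups. Such a separation was seen for 76.5% of all genes.

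The lipid-sensing *PPARD* and the orphan *NR2F2*, a regulator of mesenchymal and venous fate, stood near the threshold. *PPARD* was at 41.2 and 43.5 CPM in the controls and at 54.4 and 49.1 CPM with pLOC-MALINC1, a log2 difference of 0.29 (SE 0.091, adjusted p = 0.0182, limma). *NR2F2* was at 15.9 and 18.2 CPM and at 23.6 and 19.8 CPM, a log2 difference of 0.35 (SE 0.098, adjusted p = 0.0104, limma). For neither did the groups overlap, which was so for 76.5% of all genes. The other 6 receptors did not pass, with log2 differences from -0.13 for *THRA* to 0.12 for *ESR1*. Under quantile normalization *RARG* passed as well, for 1 up and 2 down. The 95% interval of the *PPARG* difference ran from -0.13 to 0.11 and that of *ESR1* from -0.21 to 0.46.

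In DCIS.COM 6 receptors changed with overexpression of *MALINC1*: *ESR1*, *RARA*, *RARG* and *NR3C1* rose, and *PPARG* and *VDR* fell. That is 4 rising against 16.4% of all genes and 2 falling against 16.7%, or 6 of 10 against 33.2%, and again none was a DEG, against 4.53% of all genes. The count of 6 became 3 to 5 with 1 library left out and 2, *PPARG* and *RARG*, when the DCIS.COM groups were fitted alone. The median absolute log2 change was 0.29 over the receptors and 0.20 over all genes.

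*PPARG*, the adipogenic and anti-inflammatory receptor that is the target of thiazolidinediones, was at 37.7 and 37.1 CPM in the controls and at 21.4 and 22.2 CPM with pLOC-MALINC1, with each library with *MALINC1* below each control, a separation in 1 direction or the other that 73% of all genes showed. It fell by 0.78 on the log2 scale (SE 0.057, adjusted p = 3.6e-07, limma). *PPARD*, its paralog, was at 12.1 and 10.98 CPM and at 12.6 and 10.4 CPM, and the groups overlapped. The 95% interval of its log2 difference ran from -0.21 to 0.19.

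Among the steroid receptors, *ESR1*, which carries the response to estradiol, was at 2.24 and 2.20 CPM in the controls and at 3.84 and 3.72 CPM with pLOC-MALINC1. It rose by 0.75 on the log2 scale (SE 0.15, adjusted p = 0.00169, limma) from the lowest level of the 10. *NR3C1* was at 106 and 110 CPM in the controls and at 125 and 136 CPM with pLOC-MALINC1, a log2 rise of 0.27 (SE 0.043, adjusted p = 0.000262, limma). The *ESR1* call was lost in 4 of 22 alternative settings and that of *NR3C1* in 2 of 22, among them the fit of the DCIS.COM groups alone.

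Both retinoic acid receptors rose. *RARG*, the main form of stratified epithelia, was at 63.5 and 65.0 CPM and then at 78.6 and 80.5 CPM, a log2 rise of 0.31 (SE 0.037, adjusted p = 2.41e-05, limma). *RARA*, the broadly expressed form, was at 17.1 and 14.9 CPM and then at 21.3 and 20.0 CPM, a log2 rise of 0.36 (SE 0.081, adjusted p = 0.00287, limma). Neither receptor's groups overlapped, which was so for 73% of all genes, and the *RARA* call was lost in 5 of 22 settings. *RXRA*, their common partner, was at 88.1 and 95.5 CPM and at 94.3 and 89.4 CPM, with overlapping groups and a 95% interval of the log2 difference from -0.10 to 0.10.

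*VDR* was at 48.5 and 42.4 CPM in the controls and at 40.0 and 37.7 CPM with pLOC-MALINC1. It fell by 0.22 on the log2 scale (SE 0.060, adjusted p = 0.0089, limma), close to the threshold, and the call was lost in 11 of 22 settings. Quantile normalization and scaling without *RN7SL1* and *RN7SL2*, abundant small RNA genes, were among these and left 4 up and 1 down. *THRA* was at 4.76 and 4.87 CPM and at 3.79 and 3.72 CPM, a log2 difference of -0.35 that did not pass (SE 0.12, adjusted p = 0.0331, limma). Its exons share 473 bases with those of *NR1D1* on the opposite strand, a gene at 5.41 and 5.78 CPM in the controls and 5.53 and 4.64 CPM with *MALINC1*. The strand setting of the counting is not given in the sources used here, so reads of that stretch cannot be told apart. *NR2F2* was at 13.9 and 14.8 CPM and at 13.3 and 14.6 CPM, with overlapping groups.

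**Figure D2:**
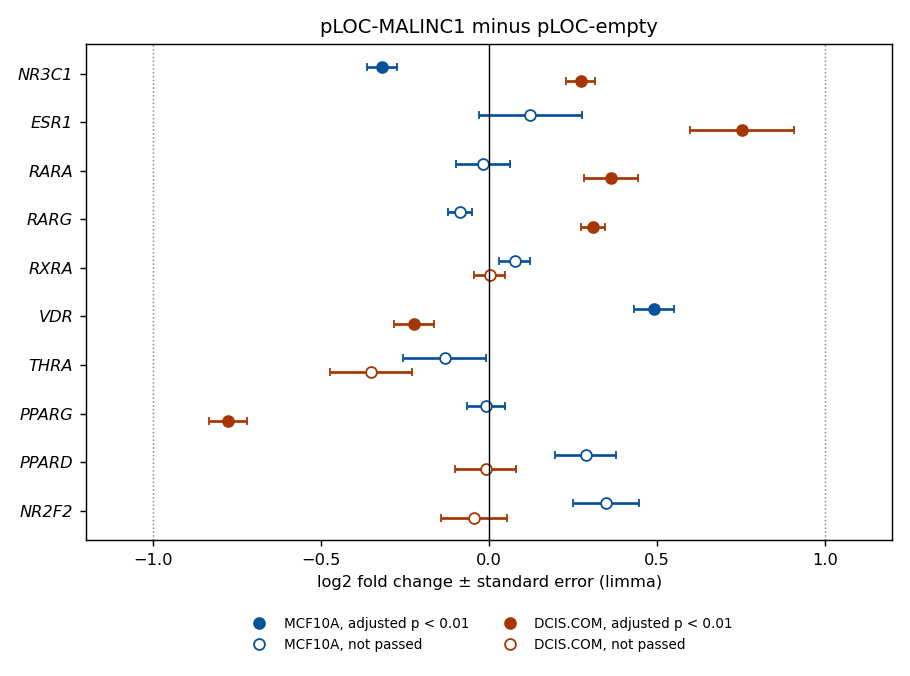
Log2 fold change (x axis, pLOC-MALINC1 minus pLOC-empty) of the 10 receptors in MCF10A and DCIS.COM, with bars of 1 standard error. Filled points had an adjusted p below 0.01, and dotted lines mark 2-fold. *NR3C1* and *VDR* are on opposite sides of 0 in the 2 lines, and no receptor passes 2-fold.

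The response to *MALINC1* differed between the lines for 4 of the 10 receptors, by the test of the difference of the 2 effects, against 35.9% of all genes. The difference was positive for 2, against 15.6%, and negative for 2, against 20.3%. No difference exceeded 2-fold by the DEG rule, which 9.2% of all genes did. *NR3C1* fell in MCF10A and rose in DCIS.COM, a difference of 0.59 (SE 0.061, adjusted p = 7.12e-06, limma). *VDR* did the reverse, with a difference of -0.71 (SE 0.084, adjusted p = 2.22e-05, limma). *MALINC1* itself reached a higher mean level in DCIS.COM, so line, medium and that level cannot be told apart in these differences.

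For the other pair of receptors the effect passed in DCIS.COM only. The *PPARG* effects of -0.01 in MCF10A and -0.78 in DCIS.COM differed by -0.77 (SE 0.080, adjusted p = 7.41e-06, limma). The *RARG* effects of -0.09 and 0.31 differed by 0.40 (SE 0.052, adjusted p = 5.07e-05, limma). These 4 differences passed under each of 21 alternative settings. Scaling without *RN7SL1* and *RN7SL2* added *RARA*, for 3 positive and 2 negative differences. In the values as deposited, the difference of effects did not pass for *RARA* (adjusted p = 0.0153, limma), *ESR1* (0.0308) and *NR2F2* (0.0334), so their effects are not shown to differ between the lines.

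Between the lines themselves, with pLOC-empty in both, *PPARD* was the receptor of the 10 that differed most. It was at 41.2 and 43.5 CPM in MCF10A and 12.1 and 10.98 CPM in DCIS.COM, lower by 1.87 on the log2 scale (log2 fold change -1.87, SE 0.091, adjusted p = 7.69e-10, limma), and was the only DEG of the 10, against 28.6% of all genes. In all, 1 receptor was higher and 4 were lower in DCIS.COM, against 73.9% of all genes past the threshold (37.9% higher and 36% lower). *RXRA* was higher, at 88.1 and 95.5 CPM against 68.7 and 67.5 CPM (log2 0.43). *NR3C1* (-0.51), *PPARG* (-0.38) and *RARG* (-0.31) were lower.

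With pLOC-MALINC1 in both lines, 7 receptors differed, 3 higher and 4 lower in DCIS.COM, against 73% of all genes (35.7% higher and 37.2% lower), and 2 were DEGs, against 26.6%. *PPARD* differed by -2.17 and *PPARG* by -1.15 on the log2 scale (SE 0.091 and 0.057, adjusted p = 2.2e-10 and 1.09e-09, limma). *VDR* (-0.80) and *NR2F2* (-0.63) were also lower, and *ESR1* (0.94), *RXRA* (0.35) and *RARA* (0.29) were higher. The log2 differences of *NR3C1* and *RARG* were 0.08 and 0.09 and did not pass, although both passed when samples were scaled without *RN7SL1* and *RN7SL2*, for 5 higher and 4 lower, and under quantile normalization, for 5 and 5. Under the scaling without these RNA genes the median log2 difference of all genes was 0.14 with pLOC-empty and 0.18 with pLOC-MALINC1, against 0.03 and 0.01 as reported. The comparisons within each vector share their libraries with those within each line.

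**Figure D3:**
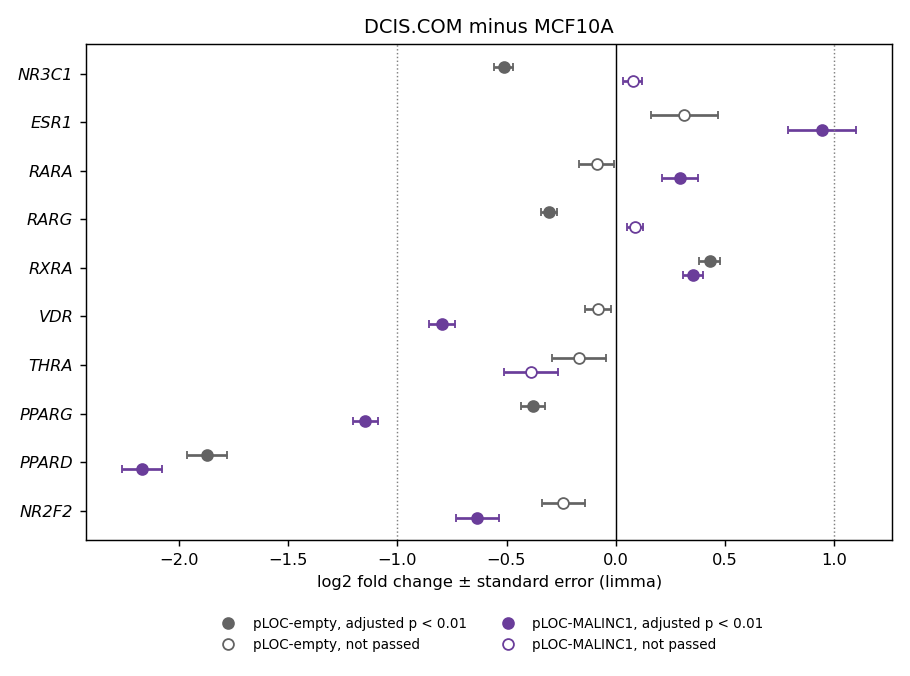
Log2 fold change (x axis, DCIS.COM minus MCF10A) of the 10 receptors with pLOC-empty and with pLOC-MALINC1, with bars of 1 standard error. Filled points had an adjusted p below 0.01, and dotted lines mark 2-fold. *PPARD* lies at -1.87 and -2.17, and *PPARG* passes 2-fold with pLOC-MALINC1.

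Of 38 other nuclear receptors, 20 had a row. In MCF10A 3 rose and 3 fell with *MALINC1*, and in DCIS.COM 1 rose and 5 fell, or 6 of 20 in each line, against 39.6% and 33.2% of all genes. *NR3C2*, the mineralocorticoid receptor, fell in MCF10A from 10.96 ± 1.65 to 4.87 ± 0.223 CPM (log2 -1.15, adjusted p = 2.03e-05, limma). With pLOC-empty, 12 were higher and 5 lower in DCIS.COM (all genes 37.9% and 36%), with a median log2 difference of 0.84 against 0.03 over all genes.

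More of the listed targets of the glucocorticoid receptor fell than rose in each line. This list and those below were chosen with earlier results of these data known, and some lists share genes. Of 24 measured, 6 rose and 14 fell in MCF10A with *MALINC1*, where 21.5% of all genes rose and 18.1% fell (median log2 change -0.48, all genes 0). In DCIS.COM 4 rose and 12 fell, where 16.4% of all genes rose and 16.7% fell (median -0.39, all genes 0.01). In MCF10A the transcription factor *ZBTB16* fell from 9.31 ± 0.336 to 1.33 ± 0.0572 CPM. The membrane protein *STOM* rose there from 33.8 ± 0.167 to 129 ± 4.32 CPM. In DCIS.COM the iron-binding *LCN2* fell from 288 ± 8.13 to 31.3 ± 1.63 CPM and the leucine zipper *TSC22D3* (GILZ) from 7.54 ± 1.36 to 2.42 ± 0.336 CPM. *FKBP5*, on the same list, went the other way there, from 18.0 ± 0.730 to 25.5 ± 0.742 CPM.

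The largest differences of this list lay between the lines. With pLOC-empty, 9 of 24 were higher and 13 lower in DCIS.COM (all genes 37.9% and 36%), with a median of -1.13 against 0.03 over all genes. The receptor co-chaperone *FKBP5* was at 516 ± 4.48 CPM in MCF10A and 18.0 ± 0.730 CPM in DCIS.COM, and the metallothionein *MT1X* at 57.3 ± 3.09 and 1.48 ± 0.343 CPM. *ZBTB16* was at 9.31 CPM in MCF10A and had 0 reads in both DCIS.COM libraries, at least 65.8-fold lower against a floor of 3 reads in a library. Among the 9 that were higher in DCIS.COM, *PDK4* was at 2.32 ± 0.162 CPM in MCF10A and 22.85 ± 1.51 CPM in DCIS.COM. Hydrocortisone is listed for the medium of MCF10A and not for that of DCIS.COM, and its part was not tested.

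Targets of the peroxisome proliferator-activated receptors handle fatty acids. With *MALINC1*, 6 of 14 measured rose and 2 fell in MCF10A (all genes 21.5% and 18.1%), and 1 rose and 9 fell in DCIS.COM (all genes 16.4% and 16.7%), where the median was -0.26 against 0.01 over all genes. *ANGPTL4*, an inhibitor of lipoprotein lipase that is also in the glucocorticoid list, rose from 23.7 ± 3.40 to 79.2 ± 3.86 CPM in MCF10A and fell from 58.6 ± 3.27 to 16.6 ± 0.450 CPM in DCIS.COM. The mitochondrial carnitine enzyme *CPT1A* rose in MCF10A from 22.2 ± 0.574 to 51.0 ± 0.464 CPM, and the lipid droplet protein *PLIN4* fell in DCIS.COM from 60.4 ± 0.227 to 26.6 ± 0.255 CPM. With pLOC-empty, 13 of 14 were higher and 1 lower in DCIS.COM (all genes 37.9% and 36%), with a median of 1.35.

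Retinoid and vitamin D targets changed in both directions. Of 12 retinoid targets measured, 3 rose and 5 fell in MCF10A and 5 rose and 3 fell in DCIS.COM, or 8 of 12 in each, against 39.6% and 33.2% of all genes. *CRABP2*, which carries retinoic acid to the nucleus, rose from 16.1 ± 0.480 to 61.2 ± 6.46 CPM in MCF10A and from 28.4 ± 3.0 to 64.5 ± 0.451 CPM in DCIS.COM. *LRAT*, which esterifies retinol for storage, rose in both lines (log2 1.45 and 1.07). The retinol uptake receptor *STRA6* (log2 -1.60) and the retinal reductase *DHRS3* (log2 -1.48) fell in MCF10A, and the transglutaminase *TGM2* fell in DCIS.COM from 60.3 ± 3.43 to 7.66 ± 0.419 CPM. Of 12 vitamin D targets, 4 rose and 1 fell in MCF10A, a share near the 39.6% of all genes (median log2 change 0.43, all genes 0). The 1 that fell was *IGFBP3*, from 302 ± 8.25 to 83.1 ± 6.58 CPM. In DCIS.COM 2 rose and 5 fell, against 33.2% of all genes changed (median -0.31, all genes 0.01). The protease *KLK6*, 1 of the 2 that rose, went from 4.92 ± 1.02 to 12.7 ± 1.17 CPM.

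Of 18 estrogen receptor targets measured, *RARA* itself among them, 5 rose and 3 fell in MCF10A, near the 39.6% of all genes, and 7 rose and 5 fell in DCIS.COM, against 33.2%. The EGF receptor ligand *AREG* rose in MCF10A from 76.4 ± 1.48 to 308 ± 6.72 CPM and the carbonic anhydrase *CA12* from 14.2 ± 0.899 to 36.3 ± 1.55 CPM. Of 8 thyroid hormone targets, 4 rose and none fell in MCF10A, with the corepressor *HR* at 12.6 ± 1.1 and then 43.5 ± 0.626 CPM. In DCIS.COM 1 rose and 2 fell. All genes had 21.5% up and 18.1% down in MCF10A, and 16.4% up and 16.7% down in DCIS.COM. With 8 genes in the list, nothing is drawn from these counts.

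**Figure D4:**
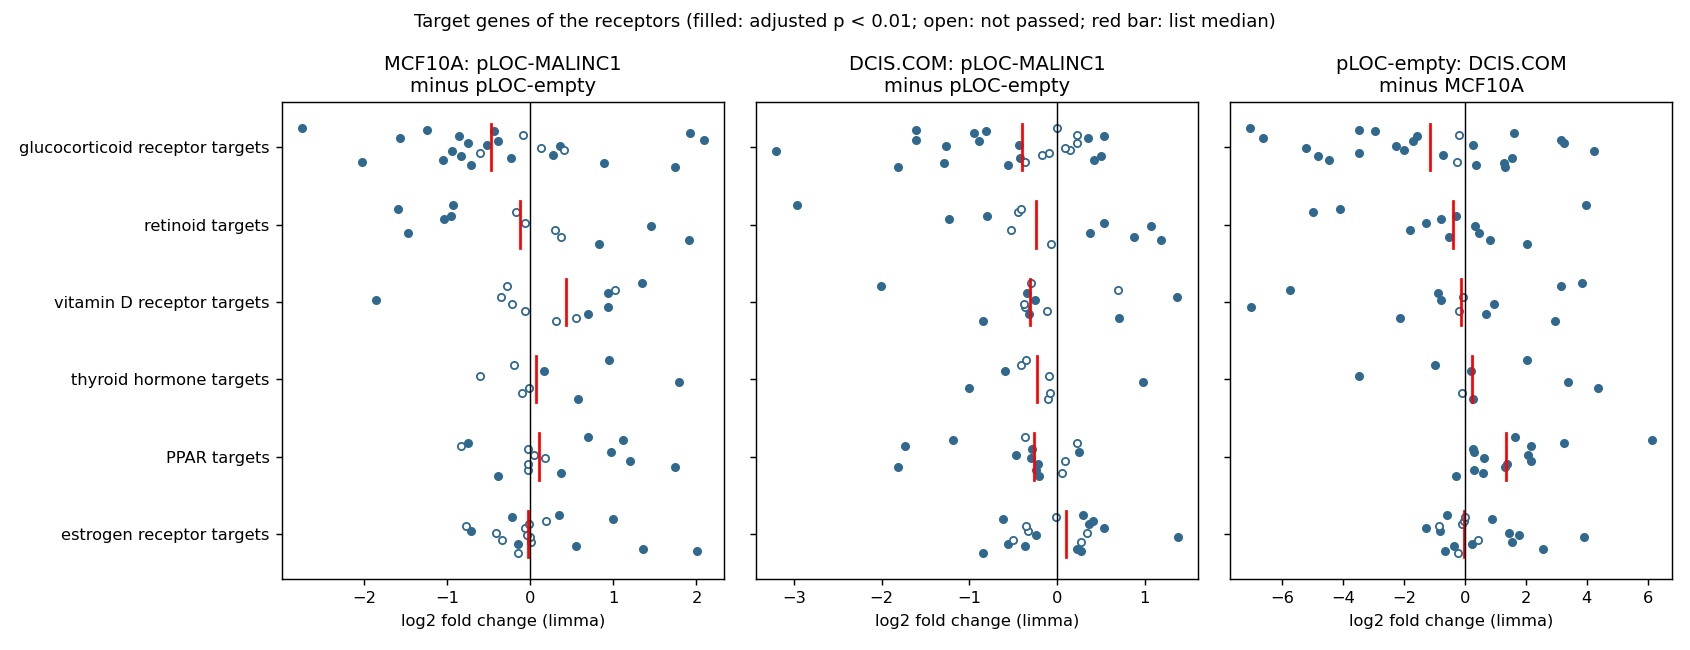
Log2 fold change (x axis) of each measured gene in 6 lists of receptor targets, for *MALINC1* in MCF10A, in DCIS.COM, and for DCIS.COM minus MCF10A with pLOC-empty. Filled points had an adjusted p below 0.01, and red bars are list medians. The median of the peroxisome proliferator-activated receptor targets is 0.11, -0.26 and 1.35 in the 3 panels, and that of the glucocorticoid targets -0.48, -0.39 and -1.13.

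Coactivators passed the threshold about as often as all genes did. Of 22, 4 rose and 5 fell in MCF10A, against 39.6% of all genes, and 5 rose and 3 fell in DCIS.COM, against 33.2%, with *PPARGC1A*, the partner of *PPARG* in mitochondrial gene expression, falling in DCIS.COM from 21.2 ± 0.117 to 4.98 ± 0.238 CPM (log2 -2.08, adjusted p = 1.56e-05, limma). Of 16 corepressors, 2 rose and 6 fell in MCF10A and 4 rose and 2 fell in DCIS.COM, against the same 39.6% and 33.2%. Of 11 chaperones of the steroid receptors, *FKBP5* among them, 8 rose and 2 fell in MCF10A (median 0.38), and 5 rose and 2 fell in DCIS.COM (median 0.13), where all genes had 21.5% up and 18.1% down, and 16.4% up and 16.7% down. *FKBP5* was lower with *MALINC1* in MCF10A (516 ± 4.48 to 289 ± 0.370 CPM) and higher in DCIS.COM (18.0 ± 0.730 to 25.5 ± 0.742 CPM).

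Of 32 genes measured for the making, breakdown and transport of ligands, 13 rose and 10 fell in MCF10A and 9 rose and 11 fell in DCIS.COM, against 39.6% and 33.2% of all genes. *HSD11B2*, which inactivates cortisol, fell in MCF10A from 14.8 ± 0.818 to 3.16 ± 0.130 CPM, and *DIO2*, which activates thyroxine, from 8.22 ± 0.857 to 0.543 ± 0.0201 CPM. *DHRS9*, which oxidizes retinol, fell in DCIS.COM from 17.4 ± 2.12 to 1.45 ± 0.172 CPM.

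The genes whose profile over the 8 libraries was nearest to that of *PPARD* were *EZR*, *TARS3* and *EEA1*, at Euclidean distances of 0.25, 0.30 and 0.32 in log2 CPM centred on each gene's mean, among 10650 genes with a mean of 5 CPM or more. Those nearest to *PPARG* were *RAB32* (0.23), *PDGFA* (0.24) and *RAB3GAP1* (0.24), and those nearest to *ESR1* were *PFAS* (0.19), *CLN6* (0.19) and *RUNX1* (0.21). All of these distances compare the same 8 libraries, and nothing about shared function is drawn from them.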

How the data were processed

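RNA of the 8 samples was sequenced as 76-base reads. The authors aligned reads to hg19 with Rsubread, counted them per gene with featureCounts on UCSC known genes and deposited log2 CPM values normalized with edgeR (hg19, featureCounts and edgeR also stand in the submitters' processing notes). Tool versions, strand setting and the filter on low genes are not given in the sources used here. The deposited log2 values gave whole reads for 100% of values (tolerance 0.1 read), so the depth is known.

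Groups of 2 were compared with limma 3.58.1 in R 4.3.3 (4 group means over all 8 libraries, trended prior), with Benjamini-Hochberg adjustment over 13842 genes. DEGs had an adjusted p below 0.01 and over 2-fold change, the thresholds of the study. The steps were tested on simulated counts with the same spread setting for every gene. That setting is simpler than the data, so it checks the steps and not the calls. Rows without a symbol (346) were tested and not named. Genes outside the 10 receptors were named by rule: other nuclear receptors that were DEGs with *MALINC1*, up to 4 DEGs per list and comparison by size of change where the higher mean reached 5 CPM, the 3 nearest profiles of the 3 most variable receptors, and overlapping opposite-strand neighbours. The receptors, lists and rules were chosen with earlier results of these data known. Exon lengths and overlaps came from GENCODE on GRCh37. Same-numbered libraries did not deviate together (r from -0.156 to 0.111), so numbers were not treated as pairs. The alternatives were pseudocounts, filters, scalings, variance models, voom on recovered reads, blocks and left-out libraries. Some genes that met the naming rule are not reported here.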

Additional observations from a re-analysis of the deposited data

Results flagged for a closer look

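The effect of *MALINC1* differed between DCIS.COM and MCF10A, by the test of the difference of effects with limma, for 4 of the 10 receptors. Of all genes, 35.9% passed the same test, a share near that of the receptors. The DCIS.COM effect minus the MCF10A effect was 0.591 for *NR3C1*, -0.713 for *VDR*, 0.395 for *RARG* and -0.768 for *PPARG*, on the log2 scale. Both libraries with *MALINC1* lay on the same side of both controls in each line for *NR3C1*, *VDR* and *RARG*, and in DCIS.COM for *PPARG*, as they did for 76.5% of all genes in MCF10A and 73% in DCIS.COM. Line, medium and the level of *MALINC1*, which was higher in DCIS.COM with pLOC-MALINC1, cannot be told apart in these differences. With 2 libraries in a group no library could be tested as standing apart from its group, and the DCIS.COM pLOC-MALINC1 pair differed most (chi-square per degree of freedom 20.4, others 3.27 to 6.27). Abundant genes weigh most in that chi-square.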

How the results depend on the processing

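Of the receptors' log2 changes under 1090 combinations of result and alternative, 1023 kept their side of the threshold, among them 17 uncalled changes that took the other sign, 27 lost their call, 40 gained one and 0 called changes reversed. The count of receptors past the threshold with *MALINC1* in MCF10A, 2 as reported, became 4 with a pseudocount of 1 CPM, a robust prior, voom or an adjusted p below 0.05 (*PPARD* and *NR2F2* were added), and 2 to 3 with 1 library left out. In DCIS.COM it was 6, became 2 when these groups were fitted alone (*PPARG* and *RARG*), and 3 to 5 with 1 library left out. The *VDR* call there was lost in 11 of 22 settings, with left-out libraries of either line among them. The count of differing effects rose from 4 to 7 at an adjusted p below 0.05 and was 4 to 5 with 1 library left out. With a pseudocount of 1 CPM, DEGs over all genes fell from 761 to 416 in MCF10A and from 627 to 368 in DCIS.COM. The causes of these shifts were not tested. With the replicate number as a block, 3 receptors passed in MCF10A (*PPARD* was added), 6 in DCIS.COM and 4 for the difference, and with the MCF10A numbers crossed, an alternative chosen after seeing the data, 3, 6 and 5 did. Of named genes outside the 10, 36 of 2594 combinations lost the call. *ESR1*, at 41 to 132 reads per library, is limited most by depth.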
